A study of Mus musculus with 217 samples.

Results

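The genes described here encode the proteins of the mitochondrial ribosome. They were chosen by name: protein-coding genes whose symbol is Mrpl or Mrps followed by a number. Of 78 annotated mouse genes with such a symbol, 77 were measured in each of 3 striatal tables that hold 11867, 12101 and 11394 genes, and Mrpl53 was not analysed here. The measured members are 48 Mrpl genes, named for the large ribosomal subunit, and 29 Mrps genes, named for the small one. Nuclear genes encode all of these proteins, which are made in the cytosol, imported into mitochondria and assembled there on the 2 ribosomal RNAs of the mitochondrial genome, mt-Rnr1 of the small subunit and mt-Rnr2 of the large one. The finished ribosome translates only the few membrane subunits of the respiratory chain and ATP synthase that mitochondrial DNA encodes, which neurons of the striatum depend on for their supply of ATP. The names do not follow the structure in every case: Mrps30 and Mrps18a proteins sit in the large subunit, and Mrps36 is now known as a subunit of 2-oxoglutarate dehydrogenase.

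Total RNA was measured in 217 libraries of 1 mm striatal punches from 93 wild-type C57BL/6J mice of about 10 weeks that received no treatment. Animals were kept under equal spans of light and dark and taken at 6 Zeitgeber times (ZT, hours after lights on), namely ZT2, ZT6 and ZT10 in the light and ZT14, ZT18 and ZT22 in the dark. The nucleus accumbens (NAc) gave 77 libraries (40 male, 37 female), the dorsomedial striatum (DMS) 70 (36 male, 34 female) and the dorsolateral striatum (DLS) 70 (35 male, 35 female), with 5 to 7 libraries per region, sex and time. Values are log2 of DESeq2-normalised counts, which the authors made for each region separately, so levels are not tested between regions. In punches of mixed cells, fewer cells of a type and less RNA per cell cannot be told apart.

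Libraries differed in mt-Rnr1 plus mt-Rnr2, whose summed share of the normalised counts ran from 22.7 to 50.6% in NAc, 19.02 to 52.6% in DMS and 13.2 to 53.03% in DLS. The DMS libraries split into 33 of high share (35.3 to 52.6%, called the high class) and 37 of low share (19.02 to 29.9%, the low class). All 26 DMS libraries of animals numbered from 31 were of the high class, against 7 of 44 with lower numbers. Of 12, 12, 11, 11, 12 and 12 DMS libraries at ZT2, ZT6, ZT10, ZT14, ZT18 and ZT22, the high class held 3, 4, 7, 7, 10 and 2, so the class moves with the time of day. For this reason the share enters the DMS tests of time and sex as a covariate. In DLS, the library of male 13 at ZT6 stood apart with a share of 13.2%. All members together also took only 0.0184% of its normalised counts, against a DLS median of 0.0935%. The share is a part of all counts, so more reads of other genes lower it as less mitochondrial rRNA does. Which of these applies to male 13 was not tested. All 12 markers of striatal projection neurons were measured, and their summed log2 level was between 16.4 and 17.7 in NAc, 17.6 and 18.3 in DMS and 17.3 and 18.1 in DLS. Markers of choroid plexus and ependyma, which line the neighbouring ventricle, were mostly unlisted, with 2 of 7 measured in NAc, 3 of 7 in DMS and 0 of 7 in DLS, and a summed level of 6.04 to 16.1 among DMS libraries.

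In log2 counts, the median mitochondrial ribosomal protein gene lay somewhat below the median gene of each table. Their mean log2 value ran from 7.15 to 10.3 in NAc (median 9.16), from 7.01 to 10.2 in DMS (median 9.20) and from 6.86 to 9.96 in DLS (median 8.94). The medians of all genes were 9.40, 9.54 and 9.28. Members are short: their exons cover a median of 2.53 kb, against 4.76 kb for all genes of the NAc table. Per kb of exon, the median member stood at percentile 59.8 of the NAc table, 54.9 of the DMS table and 56.0 of the DLS table. All members together took 0.0930 to 0.137% of the normalised counts of an NAc library, 0.0793 to 0.129% in DMS and 0.0184 to 0.115% in DLS, where the lowest value was that of male 13.

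The order of the members per kb was alike in the 3 tables. Mrps21, a small-subunit protein with a bacterial counterpart, was highest in each, with 941 ± 236 normalised counts per kb in NAc (SD, n = 77), 1033 ± 142 in DMS and 896 ± 98.6 in DLS (n = 70 each). Mrpl18 followed with 845 ± 147, 798 ± 130 and 716 ± 78.6. The next 4 places were shared by Mrpl52, Mrpl41, Mrpl12 and Mrpl27. Mrpl12 protein, which carries the flexible stalk that factors dock on and also binds mitochondrial RNA polymerase, had 699 ± 124 in NAc, 658 ± 79.0 in DMS and 543 ± 61.5 in DLS, which does not separate it from its neighbours beyond their spread between libraries. The lowest 4 were Mrpl13, Mrps35, Mrps10 and Mrpl33 in every table, with Mrpl33 at 25.6 ± 8.54, 24.6 ± 4.83 and 20.5 ± 3.74. The highest member stood 36.8-fold above the lowest in NAc, 42.02-fold in DMS and 43.7-fold in DLS. These levels divide by all annotated exon bases, which is 7.33 kb for Mrpl33 and 0.739 kb for Mrps21, so a long, rarely used exon lowers a value. The 3 Mrps18 genes are paralogs whose proteins take different places in the ribosome, and Mrps18a had a higher log2 level than both others: it averaged 9.62 ± 0.22 in NAc, 9.55 ± 0.17 in DMS and 9.26 ± 0.19 in DLS, Mrps18b 7.26 ± 0.52, 7.28 ± 0.32 and 7.07 ± 0.28, and Mrps18c 7.20 ± 0.56, 7.24 ± 0.47 and 7.19 ± 0.34. In log2 counts Mrps18b and Mrps18c lay within each other's spread. These log2 levels are not divided by length, so they do not rank the paralogs per kb. Annotated exons cover 3690 bases in Mrps18a, 2089 in Mrps18b and 1076 in Mrps18c.

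**Figure D1:**
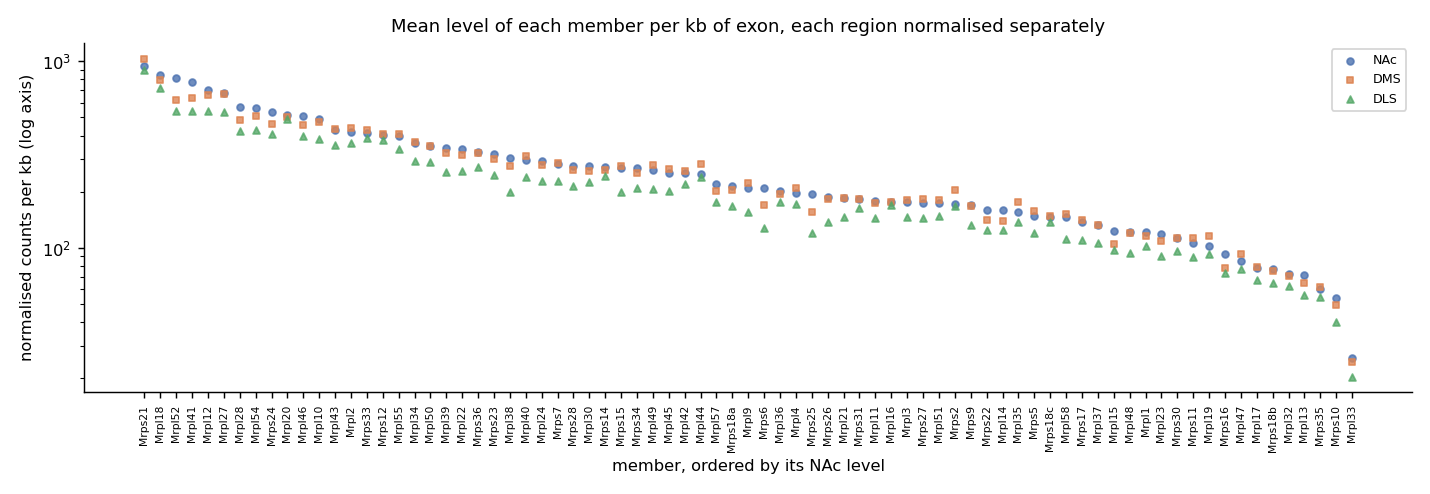
Mean level of each of the 77 members per kb of exon (log axis, normalised counts per kb), 1 point per region, ordered by the NAc level. The order falls from Mrps21 to Mrpl33 and the 3 regions run in parallel.

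Some promoters of these genes hold letters that known factors bind, and the 4 windows below belong to the members with the clearest daily rhythm in DLS, 3 of which were also called rhythmic in DMS. They are RefSeq promoters (GRCm38.p6, plus strand, 100 bases before to 30 after the start), and capitals mark CCGGAAG, the letters ETS factors such as GABP bind (also as CTTCCGG on the other strand), or AAGATGGCG, the letters YY1 binds.
Mrpl51, chr6:125192100-125192229: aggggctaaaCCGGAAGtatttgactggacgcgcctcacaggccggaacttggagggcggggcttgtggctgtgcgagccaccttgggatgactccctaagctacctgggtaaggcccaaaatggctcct
Mrpl16, chr19:11770315-11770444: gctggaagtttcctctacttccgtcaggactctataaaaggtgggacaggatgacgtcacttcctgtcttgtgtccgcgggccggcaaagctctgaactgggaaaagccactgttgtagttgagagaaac
Mrps27, chr13:99344686-99344815: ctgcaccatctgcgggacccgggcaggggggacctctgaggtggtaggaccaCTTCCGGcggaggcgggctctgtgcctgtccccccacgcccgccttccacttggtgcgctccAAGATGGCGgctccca
Mrps18a, chr17:46110904-46111033: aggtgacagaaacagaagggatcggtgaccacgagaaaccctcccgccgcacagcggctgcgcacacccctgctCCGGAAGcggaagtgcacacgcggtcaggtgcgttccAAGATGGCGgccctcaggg
Mrps27 and Mrps18a hold both letter runs, Mrpl51 holds the ETS letters and Mrpl16 neither.

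RefSeq windows of 250 bases before to 50 after the start were found for 68 of the 77 members (74 windows), and both strands were searched. The ETS letters were in 33.8% of member windows, against 17% of the 11122 windows of coding genes in all 3 tables and 8.86% of all 32851 windows. The YY1 letters were in 10.8% of member windows, against 3.08% and 1.40%. The palindrome of NRF1, a factor that activates nuclear genes of mitochondria, was in 4.05% against 2.11% and 0.971%. The E-box CACGTG, which clock proteins bind, was in 9.46% of member windows against 10.0% and 7.15%. The GC box GGGCGG was in 52.7% against 63.4% and 35.7%, and TATAAA in 6.76% against 6.70% and 13.6%. These are counts of letters, not of bound sites. Members also often start next to another gene: 18 of 77 (23.4%) had a coding gene starting within 1000 bases upstream on the opposite strand, against 9.89% of 10821 coding genes. Mrps27 and Ptcd2 start 81 bases apart, Mrpl51 and Ncapd2 100 bases and Mrpl54 and Apba3 26 bases. These distances use GENCODE gene starts. For Mrpl51 that start is at 125191801, upstream of the whole RefSeq window printed above. The library kit was stranded, but the strand setting of the counting is not stated. By whole gene spans, 35 members overlap a gene on the opposite strand, Mrps18a (Rsph9), Mrps27 (6430562O15Rik), Mrps34 (Mapk8ip3), Mrps28 (Gm15467) and Mrpl58 (Ict1os) among them. Overlap of exons was not examined, and such overlaps were not counted over all genes. Whether reads of such pairs were separated by strand is unknown.

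Whether these genes follow the day was asked with a 24 h cosine in limma with sex in the model (2 degrees of freedom, Benjamini-Hochberg adjustment over all genes of a table, an adjusted p under 0.05 called rhythmic). Few did, and their swings were small. In NAc 1 of 77 members was rhythmic, against 2.56% of all genes. In DLS 5 of 77 (6.49%) were, against 21% of all genes. In DMS, with the mitochondrial rRNA share as covariate, 16 of 77 (20.8%) were, against 28.6% of all genes. Fitted apart, animals numbered up to 29 and from 31 gave 0 and 0 rhythmic members in NAc (2.01% and 0.27% of all genes), 2 and 8 in DMS (11.1% and 15.1%) and 0 and 10 in DLS (2.91% and 18.8%). In DLS the count was 8 without male 13, against 21% of all genes. Over the 3 regions, 19 members (24.7%) were called in at least 1 and 58 in none, against 38.3% of all genes in at least 1. The median amplitude, the height of the fitted peak above the mean on the log2 scale, was 0.0631 for members in NAc, 0.0578 in DMS and 0.0584 in DLS, beside 0.0749, 0.0673 and 0.0666 over whole tables. Core clock genes gave the scale of a strong rhythm: 9 of 14 were rhythmic in NAc, and 14 of 14 in each dorsal region, with median amplitudes of 0.252, 0.333 and 0.457.

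**Figure D2:**
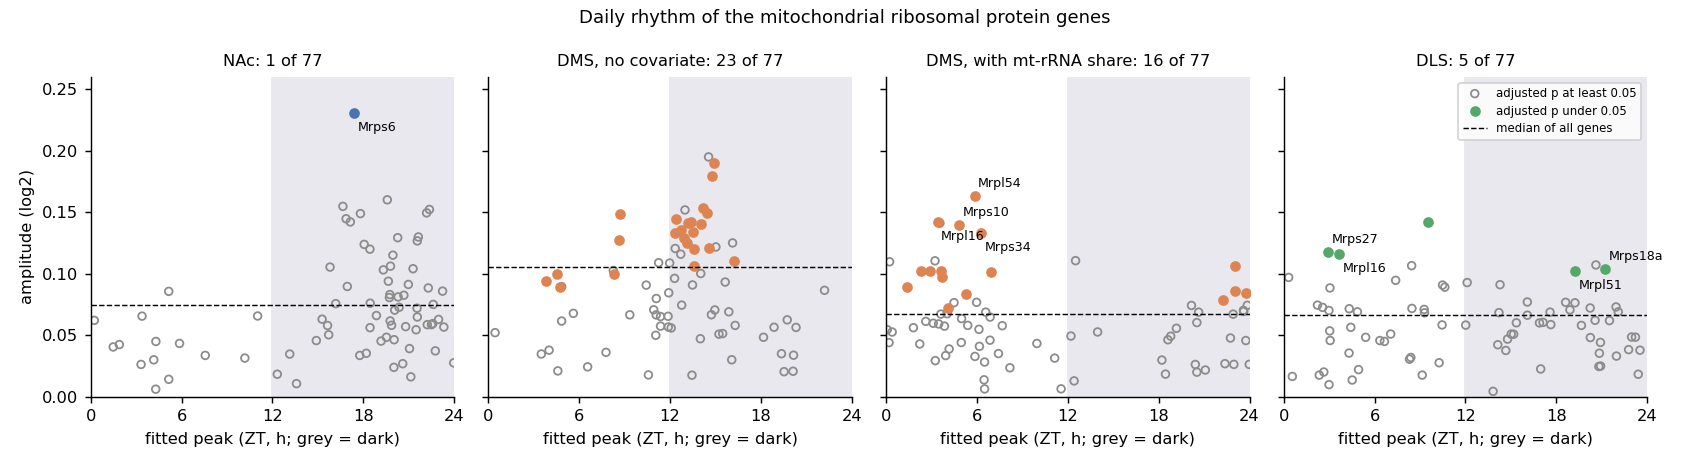
Fitted peak time (x axis, ZT in h, dark shaded) and amplitude (y axis, log2) of each of the 77 members, with filled points for an adjusted p under 0.05 and a dashed line at the median amplitude of all genes. NAc has 1 filled point, DMS 23 without and 16 with the mitochondrial rRNA share, and DLS 5; the filled DMS points lie mostly in the early dark without the share and mostly in the light with it.

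Mrpl16, a large-subunit protein with a bacterial counterpart, had the clearest rhythm in DMS. In DLS, where no covariate was used, its values (lowest, median and highest log2) were 8.98, 9.23 and 9.44 at ZT2, 8.55, 9.20 and 9.32 at ZT6, 8.69, 9.07 and 9.39 at ZT10, 8.60, 8.97 and 9.22 at ZT14, 8.68, 8.96 and 9.12 at ZT18 and 8.65, 9.16 and 9.38 at ZT22. Medians were highest early in the light and lowest at ZT14 and ZT18, and the ranges of all times overlapped. The amplitude in DLS was 0.117 ± 0.032 (SE) with a peak at 3.64 h and an adjusted p of 0.0158 (limma). In DMS, after adjustment of each library to the mean share, the medians from ZT2 to ZT22 were 9.27, 9.20, 9.10, 8.998, 9.05 and 9.14, with a peak at 3.40 h, an amplitude of 0.142 ± 0.028 and an adjusted p of 0.000356. Without the adjustment the DMS medians were 9.10, 9.02, 9.18, 9.03, 9.23 and 8.93, and no such course is visible in them. In NAc Mrpl16 was not called rhythmic (adjusted p = 0.925).

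Mrps27, a small-subunit protein of the pentatricopeptide repeat kind, and Mrps18a were the other members called in both dorsal regions, which makes 3 of 77 against 12.7% of all genes. Mrps27 had DLS medians of 8.19, 8.27, 8.24, 8.04, 8.14 and 8.32 from ZT2 to ZT22, lowest at ZT14. Its peak was at 2.92 h in DLS (amplitude 0.118 ± 0.033, adjusted p = 0.0170) and at 3.61 h in DMS (0.102 ± 0.032, adjusted p = 0.0354; limma). Mrps18a had DLS medians of 9.18, 9.27, 9.16, 9.27, 9.42 and 9.32, highest at ZT18. Its peak was at 21.2 h in DLS (0.104 ± 0.031, adjusted p = 0.0302) and at 23.02 h in DMS (0.0858 ± 0.0279, adjusted p = 0.0407; limma). Leaving out single libraries ended the DMS call of Mrps27 in 4 of 70 cases and of Mrps18a in 18 of 70, with adjusted p values of up to 0.0678 (without male 34 at ZT6) and 0.0921 (without female 49 at ZT22). A joint limma fit of DMS and DLS with the animal as a block and the share in each region found no member whose rhythm differed between them, of 77 (0 of 11365 genes; at an unadjusted p under 0.05, 6 members and 9.84% of all genes).

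DLS had 2 further rhythmic members. Mrpl51, a large-subunit protein found only in mitochondria, had medians of 9.25, 9.10, 9.15, 9.25, 9.32 and 9.26 from ZT2 to ZT22, lowest at ZT6. Its amplitude was 0.102 ± 0.023 with a peak at 19.2 h, a trough-to-peak fold of 1.15 and an adjusted p of 0.00184 (limma). Mrps28, a small-subunit protein, had medians of 7.32, 7.49, 7.70, 7.40, 7.21 and 7.27, highest at ZT10, with an amplitude of 0.143 ± 0.044, a peak at 9.50 h, a fold of 1.22 and an adjusted p of 0.0383 (limma). That of Mrps28 was lost when any of 11 of the 70 libraries was left out (adjusted p up to 0.0610, without male 37 at ZT10). The 3 members of largest amplitude that were not called in DLS were Mrpl44, Mrpl2 and Mrpl21.

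Mrps6, a small-subunit protein with a bacterial counterpart, was the NAc call and had the largest amplitude of any member in that region. Its NAc values (lowest, median and highest) were 7.59, 8.18 and 8.64 at ZT2, 7.01, 7.89 and 8.4996 at ZT6, 7.98, 8.30 and 8.86 at ZT10, 7.47, 8.33 and 8.98 at ZT14, 7.92, 8.46 and 8.85 at ZT18 and 7.96, 8.35 and 9.62 at ZT22. ZT6 stood lowest and the dark hours were higher, with wide overlap. The amplitude was 0.231 ± 0.059 (fold 1.38), the peak at 17.4 h and the adjusted p 0.0401 (limma). It was 0.0778 without female 52 at ZT6, and 21 of the 77 libraries ended the call when left out. With the rRNA share as covariate no NAc member was called, against 4.28% of all genes. Mrpl42, Mrpl15 and Mrpl14 had the next largest amplitudes, with Mrpl15 at 0.155 ± 0.041 (adjusted p = 0.0555; limma).

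**Figure D3:**
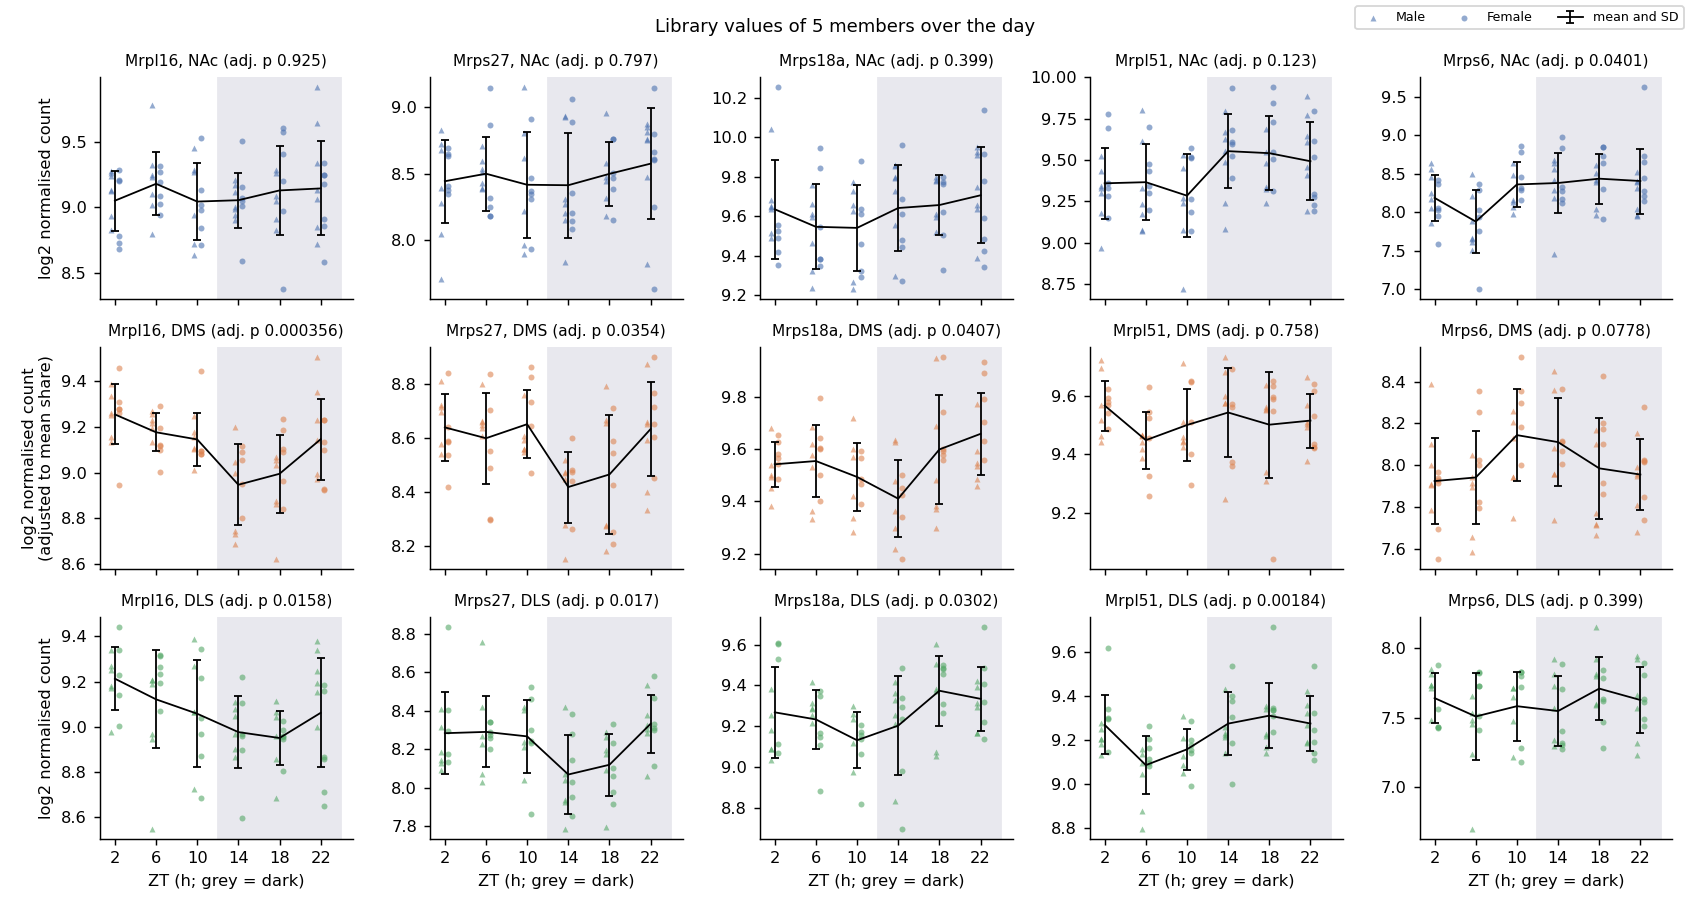
Log2 normalised counts of Mrpl16, Mrps27, Mrps18a, Mrpl51 and Mrps6 by ZT (dark shaded) in NAc, DMS and DLS, 1 point per library, with mean and SD; DMS values are adjusted to the mean mitochondrial rRNA share. Mrpl16 and Mrps27 are lower at ZT14 and ZT18 than at ZT2 in DMS and DLS, and the libraries of different times overlap in every panel.

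In DMS with the share as covariate, 12 of the 16 rhythmic members peaked in the light and 4 in the dark, with folds of 1.11 to 1.25. This split was not set beside the peak times of all rhythmic genes, so it is not shown to be particular to the members. Beside Mrpl16, the largest swings were those of Mrpl54, of the large subunit (amplitude 0.163 ± 0.039, peak 5.84 h, adjusted p = 0.00297), Mrps10, a small-subunit protein with a bacterial counterpart (0.139 ± 0.033, 4.84 h, adjusted p = 0.00315), and Mrps34, of the small subunit (0.133 ± 0.030, 6.30 h, adjusted p = 0.00173; limma). The medians of Mrps34 adjusted to the mean share were 9.08, 9.09, 9.09, 9.02, 8.77 and 8.94 from ZT2 to ZT22, and its lowest time was ZT18. Mrpl27, Mrps31, Mrpl10, Mrpl52, Mrps27, Mrpl9, Mrpl57 and Mrps12 also peaked in the light, and Mrpl35, Mrps14, Mrpl21 and Mrps18a late in the dark. Mrps12 protein lies at the decoding centre, and Mrps12 had the weakest call (adjusted p = 0.0487; limma), which ended without any of 38 of the 70 libraries. Mrps18b, Mrps6 and Mrps16 had the largest amplitudes among those not called. By role, 6 of 29 large-subunit members with a bacterial counterpart were rhythmic, and 3 of 19 of the large subunit found in mitochondria alone. The matching small-subunit groups had 3 of 16 and 3 of 9, and the Mrps18 genes 1 of 3. Among all genes, 28.6% were rhythmic in the same fit. The groups are small and were not tested against that percentage or against each other.

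The DMS picture depends on how the mitochondrial rRNA share is treated. Without the covariate 23 of 77 members were rhythmic (29.9%), against 51.3% of all genes, 17 of the 23 peaked in the dark, and only 5 of them were among the 16 called with it. Mrps22, of the small subunit, had an amplitude of 0.190 ± 0.051 with a peak at 14.9 h without the covariate (adjusted p = 0.00683), and 0.0604 ± 0.0271 with it (adjusted p = 0.184; limma). With the class in place of the share 8 members were called, against 25.2% of all genes. All 8 were also called with the share and peaked in the light: Mrpl9, Mrpl10, Mrpl16, Mrpl27, Mrpl54, Mrps10, Mrps27 and Mrps34. The peak times without the covariate and with the class were likewise not set beside those of all rhythmic genes. Within the high class alone (33 libraries, few at ZT22 and ZT2) 8 members were called against 20.5% of all genes, and within the low class alone (37 libraries) 0 were, against 2.59%. Over the same times the median share in DMS was 24.5, 25.6, 35.9, 39.8, 41.1 and 23.8%. Its part in the members' rhythm cannot be told apart from that of the time of day.

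No member's rhythm differed between males and females in limma fits with separate terms for the sexes: 0 of 77 in each region, as for all genes (0%). At an unadjusted p under 0.05 these were 3 members in NAc (4% of all genes), 4 in DMS (8.16%) and 6 in DLS (11.3%). With the sexes fitted apart, 0 members were rhythmic in males and 0 in females in NAc (0.261% and 0.447% of all genes), 5 and 3 in DMS (10.3% and 11.3%) and 2 and 5 in DLS (6.41% and 11.5%).

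Dark minus light, the mean of ZT14, ZT18 and ZT22 less that of ZT2, ZT6 and ZT10, gave few calls. Mrpl51 was higher in the dark in NAc, with a lowest, median and highest log2 value of 9.08, 9.55 and 9.94 in the dark (n = 39) and 8.72, 9.33 and 9.80 in the light (n = 38). The difference was 0.192 ± 0.053 (SE), with an adjusted p of 0.0443 (limma), and it was the 1 member called higher there, against 0.725% of all genes. That call rested on single libraries: the count fell to 0 without any of 38 of the 77 libraries, and was also 0 with the share as covariate (0.994% of all genes higher and 0.733% lower). Mrpl51 was also the 1 member higher in the dark in DLS, against 4.67% of all genes, with 8.999, 9.26 and 9.71 in the dark (n = 36) and 8.79, 9.16 and 9.62 in the light (n = 34), a difference of 0.116 ± 0.032 and an adjusted p of 0.0115 (limma). With libraries rescaled to equal sums without ribosomal RNA genes, 0 members were called in NAc (0.404% of all genes higher and 0.708% lower) and in DLS (2.71% and 1.35%). No member was lower in the dark in NAc (0.556% of all genes) or DLS (3.85%). The median over members was 0.0541 in NAc, where 63 of 77 members had a positive value, and 0.00415 in DLS, where 40 had, beside -0.00259 and -0.000843 for all genes. With the share as covariate the NAc median was 0.0133, and at equal sums 0.0242 (all genes -0.0324). It turned with the animal number, at 0.143 up to 29 (70 of 77 positive) and -0.0575 from 31 (21 positive). The DLS median was -0.00208 with the share and -0.00149 with libraries centred.

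In DMS with the share as covariate, 7 members were lower in the dark, against 7.5% of all genes, and 0 were higher, against 8.82%. They were Mrpl16 (-0.164 ± 0.037, adjusted p = 0.000873), Mrps10 (-0.199 ± 0.045, adjusted p = 0.000943), Mrps34 (-0.169 ± 0.041, adjusted p = 0.00217), Mrpl54 (-0.203 ± 0.054, adjusted p = 0.00515; limma), Mrpl27, Mrps27 and Mrpl10. The raw values overlapped: Mrps10 had 8.02, 8.58 and 9.06 in the dark and 8.25, 8.69 and 9.29 in the light (lowest, median and highest, n = 35 each). Without the covariate 1 member was called lower, against 3.82% of all genes, and 0 higher, against 4.58%. With the class in place of the share 7 were lower, against 6.71%, and 0 higher, against 7.92%.

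Male minus female differences were small. No member was called in NAc (0.00843% of all genes higher and 0.0674% lower; limma) or in DLS (0.0527% and 0.149%). At an unadjusted p under 0.05 these were 5 members in NAc, against 5.27% of all genes, and 7 in DLS, against 10.2%. In DMS with the share as covariate, 4 members were lower in males, against 4.39% of all genes, and 0 higher, against 3.71%. Mrps21 differed by -0.117 ± 0.033 (adjusted p = 0.0176; limma), with a lowest, median and highest value of 9.02, 9.49 and 9.93 in males (n = 36) and 9.30, 9.59 and 10.1 in females (n = 34). Mrps11, of the small subunit, differed by -0.173 ± 0.050 (adjusted p = 0.0215), with 7.48, 7.83 and 8.33 in males and 7.64, 7.98 and 8.41 in females. Mrpl42 (-0.105 ± 0.030) and Mrpl36 (-0.166 ± 0.052) were the other two (limma). None of the 4 was called without the share (0.521% of all genes higher and 0.388% lower) or with animal number range in the model, and 1, Mrps11, was called with the class (2.23% higher and 1.98% lower). The 7 lower-numbered animals of the high class were all male, so class and sex are not separate among lower-numbered DMS animals. Animals from number 31, all of the high class, were of both sexes. In NAc with the share as covariate 2 members were lower in males, against 1.2% of all genes, and 0 higher, against 1.58%. The median over members was -0.0470 for NAc, -0.0472 for DMS and 0.00405 for DLS. These medians depended on the animals: from number 31 alone they were 0.0327 in NAc (48 of 77 positive), 0.0472 in DMS (54 positive) and -0.0147 in DLS. Up to number 29 they were -0.0918, -0.0520 and 0.0322. With the share the NAc median was -0.0919. The DMS median was -0.0200 with the class and -0.0100 with number range in the model. The DLS median was -0.0349 at equal sums (all genes -0.0387) and -0.0139 at shares of at least 30%.

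Over all libraries of a region, most members rose with the share of mitochondrial rRNA in NAc and DMS, and fewer did in DLS. With sex and the 6 times in the model, the slope of each gene on the share was fitted per 10 percentage points. In NAc 64 of 77 members rose with the share and 0 fell (83.1%), against 31.8% of all genes that rose and 31.3% that fell. In DMS 59 rose and 1 fell, against 39.6% in each direction. In DLS 22 rose and 6 fell, against 20.8% and 20.2%. The median slope was 0.208 in NAc, 0.166 in DMS and 0.0435 in DLS, beside 0.00550, -0.000199 and 0.00294 for all genes. The DMS slope spans both classes, which the labels do not name. Its median was 0.0939 with number range in the model, 0.0788 up to number 29 and -0.0500 in the low class alone, where 32 of 77 slopes were positive. The DLS median was 0.0781 without male 13, 0.0292 up to number 29 and 0.0784 from 31.

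Mrps18c had the steepest slope of all members in NAc and in DMS. It rose by 0.586 ± 0.075 per 10 points in NAc (adjusted p = 1.84e-10), 0.476 ± 0.037 in DMS (adjusted p = 2.34e-19) and 0.236 ± 0.063 in DLS (adjusted p = 0.00181; limma). Its NAc values (lowest, median and highest) were 6.84, 7.96 and 8.44 in the 10 libraries of highest share and 5.93, 6.59 and 7.11 in the 10 of lowest share, which overlap only at their edges. In DMS they were 6.99, 7.70 and 8.35 in the high class and 6.01, 6.88 and 7.35 in the low class. Mrps14, a small-subunit protein with a bacterial counterpart, had 9.54, 10.0 and 10.4 in the high class and 9.20, 9.51 and 9.72 in the low class, with a DMS slope of 0.302 ± 0.021 (adjusted p = 1.11e-21; limma). Mrps33, of the small subunit, had NAc values of 9.39, 9.78 and 10.0 at the 10 highest shares and 8.81, 8.996 and 9.28 at the 10 lowest, with no overlap. Its slope was 0.353 ± 0.040 in NAc, 0.269 ± 0.024 in DMS and 0.186 ± 0.037 in DLS (adjusted p = 5.21e-05; limma). Mrpl33 was the steepest in DLS (0.252 ± 0.051, adjusted p = 6.42e-05; limma), with 7.03, 7.35 and 7.70 at the 10 highest shares and 6.35, 6.88 and 7.46 at the 10 lowest. Mrpl52, Mrpl13, Mrps31, Mrpl18 and Mrps22 were the others among the clearest rises.

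**Figure D4:**
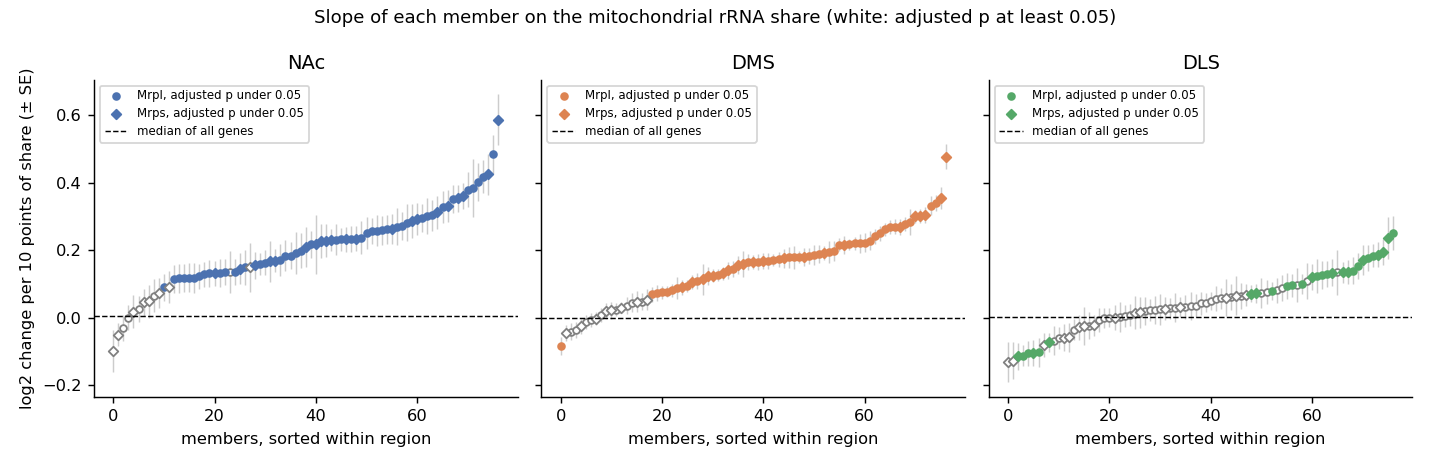
Slope of each of the 77 members on the mitochondrial rRNA share (log2 per 10 percentage points, ± SE), sorted within each region, with filled points for an adjusted p under 0.05 (limma) and a dashed line at the median of all genes. Most members lie above the line in NAc (64 called) and DMS (59), and fewer in DLS (22, with 6 called below it).

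Across regions, 22 members (28.6%) rose with the share in all 3, against 16% of the 11283 genes in all tables. In both NAc and DMS 55 members rose (71.4%), against 28.5% of 11721 genes. A further 5 (Mrpl38, Mrps2, Mrps7, Mrps15 and Mrps26) were called in no region. A few went the other way. Mrpl58 protein, a peptidyl-tRNA hydrolase that frees stalled ribosomes and is itself part of the large subunit, fell in DMS (-0.0829 ± 0.0268, adjusted p = 0.00411) and in DLS (-0.106 ± 0.037, adjusted p = 0.0158; limma), and had 0.0651 ± 0.0483 in NAc (adjusted p = 0.237). Its DMS values were 8.37, 8.90 and 9.20 in the high class and 8.57, 9.05 and 9.37 in the low class. Mrps34 rose in NAc (0.145 ± 0.046) and DMS (0.140 ± 0.025) and fell in DLS (-0.115 ± 0.039, adjusted p = 0.0138; limma). Mrpl45, whose protein anchors the ribosome to the inner membrane, rose in NAc (0.119 ± 0.042) and fell in DLS (-0.112 ± 0.030, adjusted p = 0.00184; limma), and Mrps27 had a slope of -0.105 ± 0.039 in DLS (adjusted p = 0.0242; limma). Slopes were not tested between regions. The DLS falls depended on the libraries used: 6 members fell in the fit of all libraries (20.2% of all genes), and 1 without male 13 (26.3%). At shares of at least 30% the count was 3 (21.8%). Animals up to number 29 alone gave 2 (7.59%) and those from 31 gave 0 (13.1%). At equal sums 0 members fell (4.43%). Among the stalk proteins, Mrpl10 and Mrpl11 rose in NAc and DMS, and Mrpl12 rose in NAc (0.136 ± 0.039), with slopes that were not called in DMS (0.0362 ± 0.0249, adjusted p = 0.176) or DLS (-0.0595 ± 0.0335, adjusted p = 0.149; limma). Of the name exceptions, Mrps36, the dehydrogenase subunit, rose in all 3 regions (0.226 ± 0.050, 0.156 ± 0.026 and 0.121 ± 0.037).

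The median deviation of the 77 members in a library summarises this. In DMS it was -0.0513, 0.127 and 0.344 (lowest, median and highest) in the 33 high class libraries and -0.228, -0.109 and 0.00913 in the 37 of the low class. In NAc, where no class is seen, it ran from -0.222 to 0.472 (median -0.00830), and in DLS from -0.206 to 0.284. The DMS count depended on the classes: with the class beside the share 23 members rose and 0 fell, against 15.8% and 16.7% of all genes, in the high class alone 29 rose and 1 fell (13.5% and 14.9%), and in the low class alone 1 rose and 0 fell (1.08% and 0.297%). Among animals numbered up to 29 and those from 31, fitted apart, 60 and 22 rose in NAc (29.6% and 14% of all genes), 25 and 26 in DMS (26.2% and 13.1%) and 8 and 10 in DLS (8.05% and 9%). In DLS, without male 13, 30 rose and 1 fell, against 26.1% and 26.3% of all genes.

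**Figure D5:**
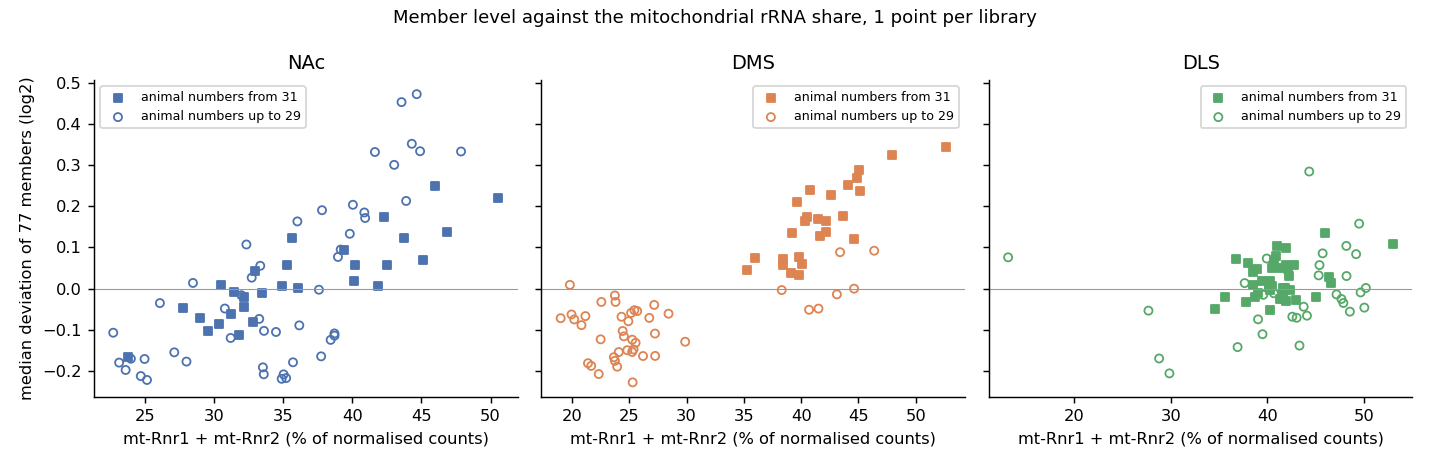
Median log2 deviation of the 77 members from their region means (y axis) against the mt-Rnr1 plus mt-Rnr2 share of normalised counts (x axis, %), 1 point per library, filled for animals numbered from 31. NAc forms a continuous cloud, DMS 2 clusters at 19.02 to 29.9% and 35.3 to 52.6%, and DLS 1 cluster with male 13 apart at 13.2%.

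The normalisation bears on these counts. Rescaling each library to an equal sum without the ribosomal RNA genes moved the median slope of all genes to -0.0683 in NAc, -0.0723 in DMS and 0.0721 in DLS. Member medians were then 0.135, 0.0934 and 0.113, with 45 members that rose and 3 that fell in NAc, 47 and 12 in DMS and 46 and 0 in DLS, against 20% and 41.8%, 26% and 53%, and 39% and 4.43% of all genes.

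Some other gene lists moved with the share too, and their part in the members' slopes was not tested. For comparison, 31.8% of all genes rose and 31.3% fell in NAc, 39.6% did in each direction in DMS, and 20.8% and 20.2% in DLS. Of cytosolic ribosomal protein genes, 78 of 79 rose in NAc, 77 of 79 in DMS and 74 of 79 in DLS, with median slopes of 0.466, 0.441 and 0.145, each above that of the mitochondrial ones. Nuclear subunits of oxidative phosphorylation rose in 69 of 76, 73 of 77 and 47 of 76 cases (medians 0.311, 0.270 and 0.0980). The mRNAs of mitochondrial DNA rose in 12 of 12, 9 of 13 and 6 of 13. The 6 further genes listed with the mitoribosome under other names (Aurkaip1, Chchd1, Dap3, Gadd45gip1, Mpv17l2 and Ptcd3) rose in 5 of 6, 6 of 6 and 3 of 6, with 1 lower in DLS. Ribosome assembly factors rose in 12 of 25, 11 of 24 and 9 of 21, translation factors in 6, 7 and 3 of 15, and aminoacyl-tRNA synthetases in 8, 11 and 6 of 22, with 4, 7 and 2 that fell. Genes for mtDNA maintenance and transcription rose in 6, 5 and 3 of 11 and fell in 4, 4 and 2. Regulators of nuclear mitochondrial genes fell in 6, 7 and 3 of 11 and rose in 2, 2 and 0.

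Markers of cell types were counted in the same way. Over all genes 31.8% rose and 31.3% fell in NAc, 39.6% did in each direction in DMS, and 20.8% and 20.2% in DLS. Counts near these shares do not set a list apart from all genes. Microglia markers rose in 5 of 10 cases and fell in 1 in NAc, rose in 9 of 10 in DMS and rose in 2 and fell in 2 in DLS. Their summed level in DMS was 13.7 to 14.3 in the high class and 13.3 to 13.8 in the low class. Red blood cell markers rose in 3 of 5, 5 of 5 and 3 of 5. Their DMS sum was 10.997 to 12.6 in the high class and 8.88 to 11.9 in the low class. Oligodendrocyte precursor markers fell in 4 of 4, 3 of 4 (1 rose) and 0 of 4, with a DMS sum of 11.5 to 12.0 in the high class and 11.8 to 12.2 in the low class. Striatal projection neuron markers rose in 3, 5 and 1 of 12 and fell in 6, 6 and 7, and their DMS sum was 17.8 to 18.3 in the high class and 17.6 to 18.3 in the low class. Interneuron markers fell in 3 of 7, 3 of 6 (2 rose) and 2 of 6. Their NAc sum was 11.3 to 11.8 in the 10 libraries of highest share and 12.04 to 12.6 in the 10 of lowest share, with no overlap, and their DMS sum was 11.6 to 12.4 in the high class and 12.01 to 12.9 in the low class. Oligodendrocyte markers rose in 1, 4 and 0 of 9 and fell in 3, 3 and 1, with a DMS sum of 16.8 to 17.5 in the high class and 17.1 to 17.95 in the low class. Astrocyte markers rose in 3, 4 and 2 of 9 and fell in 1, 2 and 0, with a DMS sum of 17.2 to 17.6 in both classes. Endothelial and mural markers rose in 3 of 9, 5 of 10 and 2 of 10 and fell in 4, 2 and 0, with a DMS sum of 13.4 to 13.9 in the high class and 13.1 to 13.6 in the low class. Cortical neuron markers fell in 2 of 5, 2 of 4 and 1 of 5, with a DMS sum of 10.7 to 13.4 in the high class and 11.1 to 13.3 in the low class. Choroid plexus and ependyma markers fell in 0 of 2 in NAc and 2 of 3 in DMS, and their DMS sum was 6.94 to 15.4 in the high class and 6.04 to 16.1 in the low class. The part of these cell types in the result was not tested.

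Some genes of the rest of the mitochondrial translation machinery were called rhythmic, but few lists held more calls than their whole table. The shares called over whole tables were 2.56% for NAc, 28.6% for DMS (share as covariate) and 21% for DLS. Tufm, the elongation factor that delivers aminoacyl-tRNA, was rhythmic in all 3 regions, with amplitudes of 0.131 ± 0.031 in NAc (peak 19.7 h, adjusted p = 0.0187), 0.0951 ± 0.0245 in DMS (21.7 h, adjusted p = 0.00691) and 0.0889 ± 0.0272 in DLS (21.4 h, adjusted p = 0.0369; limma). The translocase Gfm1 was rhythmic in DMS (19.2 h) and DLS (21.8 h). In all, 1 of 15 translation factors was called for NAc, 5 for DMS and 3 for DLS. Fastkd2, an RNA-binding assembly factor, peaked at 23.02 h in DMS (0.182 ± 0.033, adjusted p = 7.51e-05) and 20.6 h in DLS (0.111 ± 0.034, adjusted p = 0.0395), and the prolyl-tRNA synthetase gene Pars2 at 3.79 h in DMS (0.2005 ± 0.0423) and 3.69 h in DLS (0.2004 ± 0.0497; limma). Assembly factors were called in 0 of 25, 3 of 24 and 3 of 21, synthetases in 0, 4 and 3 of 22, mtDNA maintenance genes in 0, 1 and 0 of 11, regulators of nuclear mitochondrial genes in 0, 6 and 2 of 11 and mitochondrially encoded mRNAs in 0 of 12, 0 of 13 and 0 of 13. Of the genes listed with the mitoribosome under other names 0, 1 (Chchd1) and 1 (Mpv17l2) of 6 were called. Cytosolic ribosomal proteins had 0, 9 and 14 of 79 rhythmic members, and nuclear oxidative phosphorylation subunits 0 of 76, 6 of 77 and 10 of 76. Among these lists, translation factors for NAc (1 of 15) and DMS (5 of 15) and the regulators for DMS (6 of 11) exceeded the whole-table share. Every other count lay below it. No list was tested against its whole table.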

How the data were processed

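Per the series' labels and design text, total RNA of punches was sequenced and aligned with HISAT2 2.1.0 to GRCm38 (Mus musculus, Ensembl), then counted by gene with HTSeq 0.10.0 in union mode. Per the submitters' processing notes, FastQC and Trimmomatic were also used, and a human build is listed, which the mouse identifiers contradict. The deposited values are log2 of counts that the authors normalised with DESeq2 in each region apart after a filter on low genes. In DMS and DLS 100% of values were whole reads (tolerance 0.01) of log2(count + 1), summing to 35711640 to 57468484 and 29719087 to 56799764 reads per library over the listed genes. NAc values were not, 9 were below 0, and a further adjustment is not recorded, so the depth there is unknown.

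Symbols and coordinates came from GENCODE M21 (GRCm38). Limma 3.58.1 (R 4.3.3) with a variance trend was fitted to all genes of each table on the log2 values, and was tested on simulated data. The contrasts of dark and light, sex and share used time as 6 levels. Tables were made with pandas 2.3.3 and numpy 2.4.6 in Python 3.11.15, and plots with matplotlib 3.10.9. The members, lists and tests were chosen with earlier results of these data known. Genes named were 12 fixed by role; up to 8 rhythmic members of lowest adjusted p per region and the 3 of largest amplitude not called; up to 4 members per direction in the other contrasts; the 4 highest and 4 lowest levels; and up to 3 rhythmic genes of each other list. A few others were named after their values were seen. Libraries were grouped by the labels' region, sex and time; replicates are separate animals. Alternatives covered the share, scaling, pseudocount, filters, libraries left out and a block for animal number.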

Additional observations from a re-analysis of the deposited data

Results flagged for a closer look

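The 36 groups of libraries of 1 region, sex and time were each looked at in 2 measures, the median member deviation and the mitochondrial rRNA share. In 8 of these 72 cases a library stood apart from the rest of its group, which makes 6 libraries, of which 2 stood apart in both measures. Chance alone gives about 1 case in 20. In DMS, male 31 at ZT2 had a member deviation of 0.227 (median of the other 5 libraries -0.154) at a share of 42.6% (others 24.5%), and female 49 at ZT22 had 0.240 (others -0.0667) at 40.8% (others 22.6%). Male 47 at ZT22 in DMS had a share of 44.1% (others 23.8%). Each of these DMS libraries was the only one of its group from an animal numbered from 31. Each was of the high class, and the rest of its group was of the low class, so these cases repeat the split into classes. In DLS, male 24 at ZT14 had a member deviation of 0.158 (others -0.0151), and the shares of male 10 at ZT2 (47.9%, others 39.5%) and of male 13 at ZT6 (13.2%, others 41.8%) lay outside their groups.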

How the results depend on the processing

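In NAc, rhythmic members (1) numbered 0 with the share covariate (4.28% of all genes), with 6 levels of ZT (1.54%), and with animal numbers up to 29 (2.01%) or from 31 (0.27%) alone. The call of dark minus light (1) was 0 with the share (0.994% of all genes higher and 0.733% lower). It was also 0 at equal sums without rRNA genes (0.404% and 0.708%) and from number 31 (0.0253% and 0.0169%). With the share 2 members differed by sex (1.58% of all genes higher and 1.2% lower), against 0. From number 31 alone 22 rose with the share (14% of all genes), against 64 (31.8%). In DMS, rhythmic members (16) were 8 with the class (25.2% of all genes), 0 in the low (2.59%) and 8 in the high class (20.5%), and 2 up to number 29 (11.1%) and 8 from 31 (15.1%). Calls of dark minus light (7) were 1 without the share (4.58% of all genes higher and 3.82% lower). They were 1 in the low class (1.13% and 0.769%), where that member was higher in the dark, and 2 in the high class (2.45% and 1.71%). Up to 29 there were 0 (1.27% and 0.868%), and 1 from 31 (2.37% and 1.53%). Sex calls (4) were 1 with the class (2.23% of all genes higher and 1.98% lower). They were 0 without the share (0.521% and 0.388%) and with number range in the model (0.14% and 0.165%). They were also 0 in the low (0.231% and 0.0826%) and high class (0.967% and 1.06%), up to 29 (0.198% and 0.0826%) and from 31 (0.107% and 0.149%). Members rising with the share (59, against 39.6% of all genes) were 23 beside the class (15.8%), 1 in the low (1.08%) and 29 in the high class (13.5%). They were 25 up to 29 (26.2%) and 26 from 31 (13.1%). In DLS, rhythmic members (5) were 8 with libraries centred (21% of all genes), 8 by voom on the recovered reads (21.4%), 8 without male 13 (21%), 3 at equal sums (13%), 11 at shares of at least 30% (22.1%), 0 up to 29 (2.91%) and 10 from 31 (18.8%). Calls of dark minus light (1) were 2 with the share (5.33% of all genes higher and 4.34% lower), with number range (5.26% and 4.41%) and with centring (4.03% and 4.43%). They were also 2 with genes of mean log2 of at least 7 (5.1% and 4.18%) and without male 13 (4.38% and 3.73%). At shares of at least 30% there were 5 (5.34% and 5.36%), and 3 from number 31 (5.1% and 5.61%). They were 0 at equal sums (2.71% and 1.35%) and up to 29 (0.737% and 0.325%). Sex calls (0) were 1 with the share (0.079% of all genes higher and 0.202% lower) and at shares of at least 30% (0.0176% and 0.14%). Members rising with the share (22, against 20.8% of all genes) were 46 at equal sums (39%), 8 up to 29 (8.05%) and 10 from 31 (9%). Single classes and ranges hold fewer samples; for the other settings the cause was not tested. Without the share, the DMS peaks of Mrps31 (amplitude 0.1003), Mrpl10 (0.0666), Mrpl52 (0.116), Mrps14 (0.122) and Mrpl57 (0.0708) moved by more than 6 h.

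Leaving out single libraries gave 0 to 3 rhythmic members in NAc (3 without male 38 at ZT10), 11 to 19 in DMS and 4 to 9 in DLS (9 without male 16 at ZT10). Over all genes 260 to 390 of 11867, 3161 to 3744 of 12101 and 2235 to 2603 of 11394 were then rhythmic. The same omissions gave 0 to 2, 6 to 9 and 1 to 3 calls of dark minus light. Over all genes 60 to 123, 971 to 1171 and 477 to 579 were higher in the dark, and 43 to 85, 814 to 1035 and 406 to 482 lower. Sex calls were 0, 3 to 6 and 0 to 1. Over all genes 1, 348 to 588 and 4 to 11 were higher in males, and 8 to 10, 385 to 688 and 14 to 26 lower. Members rising with the share numbered 63 to 66, 59 to 62 and 19 to 30, beside 3687 to 3805, 4726 to 4803 and 2147 to 2973 of all genes. Males and females of 1 number are different animals, so numbers were not used to pair samples. Their deviations correlated over 0.1 in 10 of 26 pairs in NAc (median correlation -0.0112), 16 of 25 in DMS (0.209) and 12 of 24 in DLS (0.0996). These values do not exclude a likeness of libraries of 1 number, and in DMS the number also goes with the class. With the number as a block, 2, 16 and 4 members were rhythmic (2.72%, 28.5% and 17.9% of all genes) and 64, 59 and 21 rose with the share (31.8%, 39.6% and 21%). Depth is unknown in NAc.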
